A study of Rattus norvegicus with 24 samples.

Results

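The hypertrophic zone of the growth plate was compared with epiphyseal cartilage, the cartilage of the bone end beyond the growth plate, in the proximal tibia of 1-week-old rats. The arrays were chosen by their titles, which gave 9 of the 24 arrays of the series: 5 of the hypertrophic zone (animals 1 to 5) and 4 of epiphyseal cartilage (animals 1, 2, 4 and 5). Frozen sections of 60 µm were separated by hand into zones, and 50 to 100 ng of total RNA per sample was amplified, labelled and measured on an Affymetrix rat array. All 9 samples came from Rattus norvegicus that were not castrated, and the labels name no strain, agent or genotype. Male rats are named for the hypertrophic arrays, while the labels of the epiphyseal arrays give no sex and are worded differently, like the labels of the transition zone between proliferative and hypertrophic cartilage. No label says whether arrays with different wording were processed apart, so a processing batch and the zone cannot be told apart in this comparison. The transition zone against epiphyseal cartilage and the hypertrophic against the resting zone are comparisons within one wording, and their values are set beside the main ones. They share the epiphyseal or the hypertrophic arrays with the main comparison.

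Growth plate chondrocytes divide in columns, stop dividing, enlarge many times over and mineralize the matrix around them, after which vessels, osteoclasts and osteoblasts replace the cartilage with bone. Enlarging cells secrete Indian hedgehog, deposit type X collagen and release phosphate for mineral. Epiphyseal cartilage consists of rounder, smaller chondrocytes, part of which later enlarge in turn when a secondary centre of ossification forms inside the epiphysis.

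Values are MAS5 signals, 1 per probe set on a linear scale. Zones were compared with limma on log2(signal + 16) with the animal as a block, over 19213 probe sets. Adjusted p-values are limma's with Benjamini-Hochberg adjustment, and a called difference had an adjusted p under 0.05 and reached 2-fold. Fold changes are log2 values, hypertrophic minus epiphyseal, ± the standard error of the fit. They understate the change of dim probe sets. A gene was represented by its brightest tested probe set, which gave 10558 genes.

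Cartilage markers checked the tissue. Col2a1, the main collagen of cartilage, had signals of 138434, 69446, 42167, 50198 and 73711 in the hypertrophic arrays of animals 1 to 5. It read 53252, 56488, 52954 and 96938 in the epiphyseal arrays of animals 1, 2, 4 and 5, so the groups overlapped (0.26 ± 0.23, adjusted p = 0.439). The summed signal of 8 tested chondrocyte markers ran from 241800 to 591900 in the hypertrophic and from 247500 to 427000 in the epiphyseal arrays. Col10a1, the type X collagen that marks hypertrophic chondrocytes, read 118264, 64624, 35544, 46026 and 63170 in the hypertrophic arrays and 13967, 6418, 10600 and 3034 in the epiphyseal arrays. The lowest hypertrophic value was above the highest epiphyseal one.

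Several arrays stood apart from the others of their zone. In the hypertrophic array of animal 4 the summed signal of 9 osteoclast and macrophage markers was 88890, against 10850 to 16130 in the other hypertrophic arrays. The same sum was 74060 and 37600 in the epiphyseal arrays of animals 1 and 2, against 5025 and 4384 in those of animals 4 and 5. Endothelial markers (7 tested) summed to 7069 and 5978 in the epiphyseal arrays of animals 1 and 2 and to 1652 and 1318 in those of animals 4 and 5. The array median ranged from 150.5 to 208.7 in the hypertrophic and from 170.9 to 244.6 in the epiphyseal arrays. The log2 ratio of actin probe sets at the 3' and 5' ends, which RNA integrity can affect, ran from 3.88 to 4.67 and from 3.48 to 4.94. For Gapdh probe sets it ran from 2.16 to 3.47 and from 2.6 to 3.42. The first principal component of the 9 arrays held 40.0% of the variance and separated the zones, with scores of 45.9 to 57.6 and of -75.5 to -50.8. The second held 15.6%, and on it the epiphyseal arrays of animals 1 and 2 (-48.6 and -37.7) lay beside the hypertrophic array of animal 4 (-37.3).

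The hypertrophic zone was higher for 1244 probe sets (6.47% of those tested) and lower for 1615 (8.41%). Among genes, 710 were higher (6.72%) and 771 lower (7.30%). All 5 hypertrophic arrays lay above all 4 epiphyseal arrays for 931 genes (8.82%) and below them for 950 (9.0%). The median log2 fold change over all genes was 0.01. The arrays measure RNA of whole zones, so a smaller share of a cell type and less RNA per cell cannot be told apart.

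**Figure D1:**
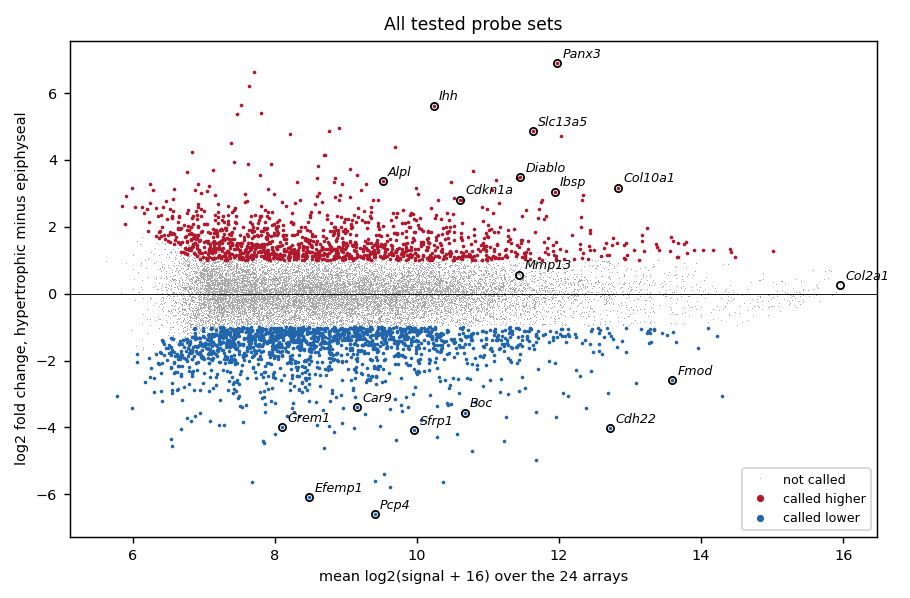
All 19213 tested probe sets by mean log2(signal + 16) over the 24 arrays (horizontal) and log2 fold change, hypertrophic minus epiphyseal (vertical), with called probe sets in red (higher) and blue (lower) and selected genes ringed. Panx3 lies at 6.89 and Pcp4 at -6.59, while Col2a1, the brightest gene marked, lies at 0.26 and was not called.

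The 12 largest rises included a channel, a ligand and transporters. Panx3, a pannexin channel gene of maturing chondrocytes, had signals of 47409, 38425, 29962, 20424 and 28898 in the hypertrophic arrays and of 751.8, 91.4, 236.2 and 282.7 in the epiphyseal arrays. The difference was 6.89 ± 0.30 (adjusted p = 2.2e-14), about 119-fold, and it was nearly as large in the transition zone against epiphyseal cartilage (6.81 ± 0.30) and in the hypertrophic against the resting zone (6.66 ± 0.28). Slc13a5, which encodes a citrate transporter, read 39829, 31896, 18683, 24749 and 30865 against 1219, 704.8, 1008 and 1287. It had the smallest standard error of the 12 rises (4.86 ± 0.18, adjusted p = 1.83e-15), and its values were 3.14 ± 0.18 in the transition zone against epiphyseal cartilage and 5.09 ± 0.17 in the hypertrophic against the resting zone.

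Sgsm1, a modulator of small G proteins, read 2321, 2845, 2098, 1733 and 3182 in the hypertrophic and 17.6, 75.2, 28.8 and 63 in the epiphyseal arrays (5.40 ± 0.33, adjusted p = 5.17e-12). Irx5, an Iroquois homeobox gene, rose by 5.38 ± 0.44 and Ddit4l, an inhibitor of mTOR signalling, by 4.86 ± 0.29. The epiphyseal signals of these 3 genes, and of Cldn10 and Myl3 named next, lay below the array median in all 4 arrays, so the size of their folds rests on dim values. Claudin gene Cldn10 rose by 4.15 ± 0.33 and Eppk1, a cytoskeletal linker gene, by 3.87 ± 0.44.

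Col13a1, Myl3 and Slco2b1 rose in the hypertrophic zone but had small values in the transition zone. Col13a1, a transmembrane collagen gene, read 1306, 2415, 1150, 4583 and 3121 against 343.4, 480.4, 2.5 and 10.9 (4.49 ± 0.75, adjusted p = 5.3e-05), and its epiphyseal arrays fell far apart, those of animals 1 and 2 being the higher. Slco2b1, an organic anion transporter gene, rose by 3.72 ± 0.49 and Myl3, a myosin light chain gene of slow and heart muscle, by 3.89 ± 0.45. In the transition zone against epiphyseal cartilage the values were 0.61 ± 0.75 for Col13a1, 0.79 ± 0.49 for Slco2b1 and 0.56 ± 0.45 for Myl3 (adjusted p = 0.582, 0.243 and 0.372). None of these 3 passed the test there.

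Among the 12 largest falls were genes of matrix and of Wnt and bone morphogenetic protein inhibition. Pcp4, a calmodulin-binding protein gene, had signals of 33.1, 185.8, 74.5, 56.2 and 18.7 in the hypertrophic arrays and of 6800, 3157, 10099 and 9694 in the epiphyseal arrays (-6.59 ± 0.42, adjusted p = 1.5e-11). Efemp1, which encodes the matrix protein fibulin-3, read 8.3, 8.8, 29.4, 58.2 and 45.1 against 2378, 3573, 2094 and 2928 (-6.08 ± 0.39, adjusted p = 1.47e-11). Its hypertrophic signals were below the array median in all 5 arrays, so that zone held little measurable Efemp1 RNA.

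Cdh22, a cadherin gene, was bright in both zones, at 2646, 2126, 1541, 1174 and 2580 in the hypertrophic and 26859, 31157, 36334 and 39682 in the epiphyseal arrays (-4.02 ± 0.23, adjusted p = 2.15e-12). Col14a1, a collagen gene that binds to fibrils, fell by 4.28 ± 0.38 and the value of Itgbl1, a secreted integrin-like protein gene, was -4.62 ± 0.42. The claudin gene Cldn11 was at -4.14 ± 0.33, Shisa3 at -4.45 ± 0.31, Apc2, a relative of the Wnt regulator APC, at -3.97 ± 0.30 and Runx1t1, a transcriptional corepressor gene, at -3.92 ± 0.56. LOC100910558 fell by 4.56 ± 0.44. In Shisa3, Apc2, Runx1t1 and LOC100910558 all 5 hypertrophic arrays lay below the array median, as did 4 of 5 in Pcp4, Itgbl1 and Sfrp1, so the size of these folds rests on dim values too. For these 24 genes the arrays of the zones did not overlap, and the direction was the same in the 4 animals with both zones, which the rule that chose them required.

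**Figure D2:**
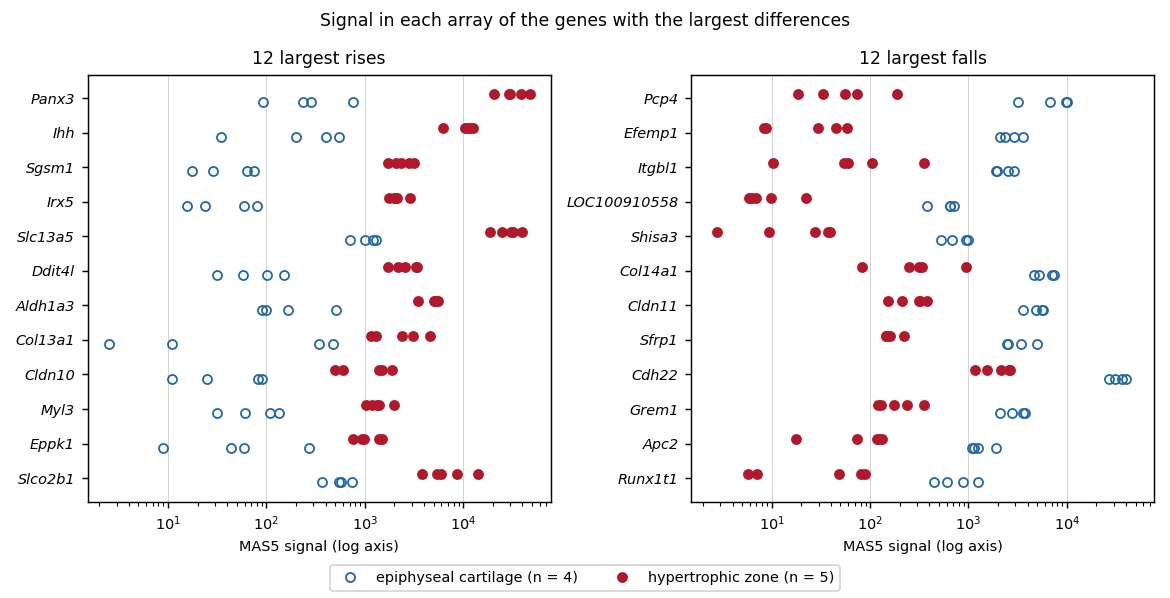
MAS5 signal on a log axis in each hypertrophic array (filled red, n = 5) and each epiphyseal array (open blue, n = 4) for the 12 genes with the largest rises (left) and the 12 with the largest falls (right). The zones do not overlap for any of the 24 genes, which were chosen for the size of their differences. Panx3 runs from 20424 to 47409 in the hypertrophic arrays and from 91.4 to 751.8 in the epiphyseal arrays.

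Of 22 hypertrophy genes, 20 were tested, 14 were higher in the hypertrophic zone and none lower (median 1.47). Over all tested genes 6.72% were called higher and 7.30% lower, the shares to set beside the counts of this and the following lists. Runx2 and Sp7 had no probe set named for them alone. After Panx3 and Ihh, the smallest adjusted p-values were those of F13a1 and Foxa2. F13a1, which encodes the A subunit of factor XIII, a transglutaminase, read 8668, 13510, 4059, 8457 and 6363 against 1968, 1709, 520.3 and 436.6 (3.17 ± 0.33, adjusted p = 6.42e-08). Foxa2, a transcription factor gene of hypertrophic differentiation, read 2695, 3938, 1998, 2575 and 3092 against 887.2, 752.7, 704.8 and 1011 (1.83 ± 0.20, adjusted p = 1.3e-07). Neither gene's zones overlapped.

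Other members were chosen for mention after their values were seen. Col10a1 rose by 3.17 ± 0.50 (adjusted p = 2.51e-05). Its value was 6.55 ± 0.46 in the hypertrophic against the resting zone, and its mean signal was 8505 in epiphyseal and 822.7 in resting cartilage. Foxa3 rose by 2.33 ± 0.48, Tgm2, a second transglutaminase gene, by 1.60 ± 0.18, Mef2d by 1.45 ± 0.17, Dlx5 by 1.45 ± 0.36 and Runx3 by 1.27 ± 0.18. Mef2c, a transcription factor gene that drives hypertrophy, was not called, at 0.08 ± 0.17 (adjusted p = 0.761), with mean signals of 16260 and 15310. Vegfa, a growth factor gene that draws vessels into hypertrophic cartilage, was not called either, at 0.30 ± 0.34 (adjusted p = 0.559).

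Mmp13, the collagenase gene of late hypertrophic cartilage, did not separate the zones. It read 13034, 8995, 7705, 24692 and 8554 in the hypertrophic arrays and 27917, 34778, 1993 and 1742 in the epiphyseal arrays. The epiphyseal arrays of animals 1 and 2 were above every hypertrophic array and those of animals 4 and 5 below every one. The difference was 0.57 ± 0.69 (adjusted p = 0.584), and after leaving out these epiphyseal arrays of animals 1 and 2 it was 2.46 ± 0.66 (adjusted p = 0.0084). The osteoclast and endothelial sums, given above, were high in the same 2 epiphyseal arrays, and their part in this result was not tested.

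Among 20 mineralization genes 18 were tested, 8 were higher and 1 was lower (median 1.19). Alpl, the alkaline phosphatase gene that frees phosphate for mineral, read 8259, 8638, 7534, 5634 and 8105 in the hypertrophic and 898.8, 725.5, 1111 and 822.6 in the epiphyseal arrays (3.36 ± 0.36, adjusted p = 8.53e-08). Phospho1, a phosphatase gene of matrix vesicles, rose by 1.80 ± 0.24 (adjusted p = 3.52e-06). Ibsp, a sialoprotein gene of mineralized matrix, read 40877, 36879, 20442, 33551 and 25412 against 17185, 1699, 1703 and 3637. The epiphyseal array of animal 1 was the highest of its zone and still below every hypertrophic array (3.05 ± 0.42, adjusted p = 4.82e-06).

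Ibsp did not differ detectably between the transition zone and epiphyseal cartilage (0.03 ± 0.42, adjusted p = 0.969), while Alpl (2.01 ± 0.36) and Phospho1 (1.78 ± 0.24) were higher in the transition zone. Mgp, an inhibitor of mineralization and the single member that fell, read 7071, 4974, 6037, 11744 and 8139 against 26163, 18412, 21703 and 25070 (-1.63 ± 0.19, adjusted p = 3.55e-07). Among members chosen after their values were seen, Mepe rose by 1.92 ± 0.45, the phosphate transporter gene Slc20a1 by 1.24 ± 0.18 and Smpd3, a sphingomyelinase gene, by 1.15 ± 0.22. Dmp1, a matrix protein gene of osteocytes, rose by 2.08 ± 0.59 (adjusted p = 0.00876), with 11406 in the hypertrophic array of animal 4 and 367 to 1076 in the others. Without replicate 4 it was 0.96 (adjusted p = 0.118), without replicate 5 Slc20a1 was 0.91 and Smpd3 0.98, below 2-fold, and Smpd3 was also 0.98 after leaving out epiphyseal animals 1 and 2.

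**Figure D3:**
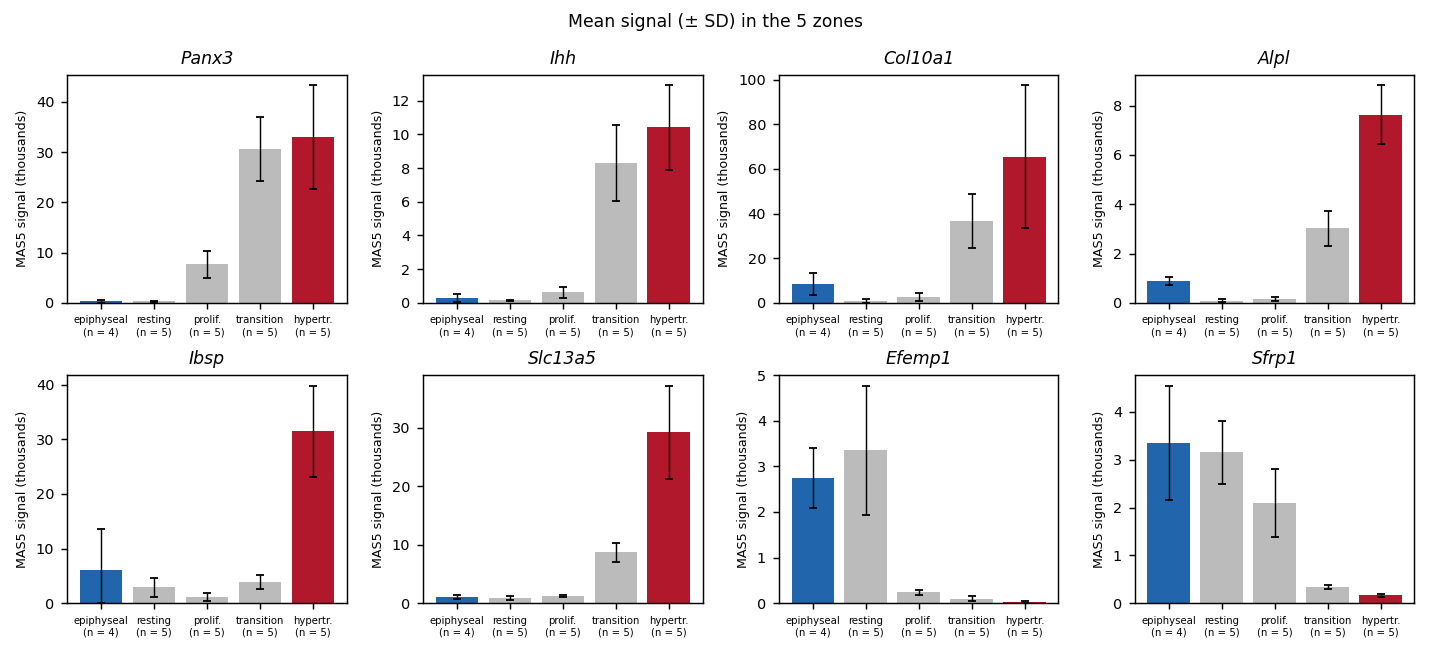
Mean MAS5 signal, divided by 1000 (bars) with SD (lines, cut at 0) in epiphyseal cartilage (n = 4, blue) and in the resting, proliferative, transition (grey) and hypertrophic (red) zones (n = 5 each) for 8 genes. Panx3 and Ihh are already high in the transition zone, Ibsp has means of 3889 there and 31430 in the hypertrophic zone, and Efemp1 is low in all 3 zones beyond the resting zone.

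For the system of hedgehog and parathyroid hormone-related protein, 12 of 20 genes were tested, 3 were higher and 3 lower (median 0.30). Ihh, the ligand, read 12716, 10515, 10934, 6204 and 11682 in the hypertrophic and 547, 34.8, 402 and 198.7 in the epiphyseal arrays (5.62 ± 0.43, adjusted p = 4.14e-10). Disp1, whose product releases the ligand from cells, rose by 1.52 ± 0.24 (adjusted p = 2.25e-05). Pth1r, the receptor gene for parathyroid hormone-related protein, read 51953, 34020, 27107, 28190 and 41055 against 11676, 11274, 18178 and 14684 (1.48 ± 0.18, adjusted p = 5.63e-07). The zones did not overlap for any of these 3 genes.

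Genes that act in receiving the signal were mixed between calls and no call. Boc, a co-receptor gene, read 326, 561.3, 525.7, 1154 and 1050 against 6098, 6295, 8886 and 10342 (-3.56 ± 0.32, adjusted p = 5.33e-09). Gli2, a transcription factor gene of the pathway, fell by 1.62 ± 0.29 (adjusted p = 0.00012) and Smo, the signal transducer gene, by 1.12 ± 0.19 (adjusted p = 5.96e-05). Gli1, a target gene of the pathway, lay below the array median in every array but the epiphyseal one of animal 2, where that median was 171.4. It read 45.7, 87.8, 16.9, 35.2 and 41.9 against 164.2, 213.8, 42.1 and 66.3, and was not called (-0.84 ± 0.33, adjusted p = 0.0602). Without replicate 4 it was called, at -1.10 (adjusted p = 0.0251), and with a pseudocount of 1, at -1.06 (adjusted p = 0.0371). Hhip, which encodes a hedgehog-binding inhibitor, was at 0.07 ± 0.41, Kif7 at -0.05 ± 0.21, Sufu at 0.53 ± 0.50 and Stk36 at 0.53 ± 0.44. Dhh, another ligand gene and not a receiving one, was at 0.79 ± 0.50, and none of these 5 was called. The other 8 members were not tested.

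Of 29 tested genes of bone morphogenetic protein signalling, 6 were higher and 5 lower (median 0.39). The ligand gene Bmp2 read 8085, 9092, 9831, 4905 and 5649 against 1321, 1572, 2085 and 1938 (2.04 ± 0.20, adjusted p = 2.39e-08). Bmp6 read 4628, 4797, 4303, 2361 and 4492 against 465, 660.2, 1229 and 691.3 (2.52 ± 0.27, adjusted p = 9.36e-08). Both ligand genes were higher in every hypertrophic than in every epiphyseal array. Grem1, a secreted inhibitor of these ligands, read 349.2, 237.9, 130.1, 174.9 and 121.7 against 2107, 2792, 3601 and 3795 (-4.00 ± 0.42, adjusted p = 7.89e-08). Id2, a target gene of the pathway, fell by 1.84 ± 0.20 (adjusted p = 1.25e-07). Among members named after their values were seen, Smad7 was called higher, while Id1, Id3, Id4 and Smad6 were not called. Outside the rule for named genes, Bmp8a rose by 2.61 ± 0.46, Bambi, a pseudoreceptor gene, by 1.60 ± 0.21, and Bmp3 fell by 2.87 ± 0.45.

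In the Wnt list 4 of 21 tested genes were higher and 6 lower (median -0.03). The ligand gene Wnt5b read 10004, 7943, 7881, 6933 and 9613 against 1093, 1476, 1837 and 1808 (2.53 ± 0.18, adjusted p = 1.42e-10). Tcf7l2, a transcription factor gene of the pathway, rose by 1.90 ± 0.16 (adjusted p = 1.32e-09), and its value was 0.34 ± 0.16 in the transition zone against epiphyseal cartilage. The secreted inhibitor Sfrp1 read 160.2, 149.3, 144.3, 145.6 and 219.2 against 2461, 2538, 5028 and 3391 (-4.08 ± 0.19, adjusted p = 8.61e-14). A receptor gene, Fzd2, fell by 2.48 ± 0.24 (adjusted p = 1.66e-08). A further inhibitor, Sfrp5, named after its value was seen, fell by 3.23 ± 0.36.

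Receptors for fibroblast growth factors split. Fgfr1 read 3748, 4160, 1713, 4716 and 3568 in the hypertrophic and 1206, 1635, 1519 and 1016 in the epiphyseal arrays (1.44 ± 0.23, adjusted p = 2.4e-05), whereas Fgfr2 read 500.1, 465.5, 660.3, 1071 and 572.1 against 3206, 3620, 4953 and 3734 (-2.60 ± 0.18, adjusted p = 5.45e-11). In the transition zone against epiphyseal cartilage Fgfr1 was lower, at -1.59 ± 0.23 (adjusted p = 8.68e-06). Fgfr3, the receptor gene that restrains growth plate growth, passed the test below 2-fold, at 0.86 ± 0.19 (adjusted p = 0.00095), as did the decoy receptor gene Fgfrl1 at -0.91 ± 0.21 (adjusted p = 0.00184). Fgfr3 passed 2-fold without replicate 4 (1.10) and without the hypertrophic array of animal 4 (1.03). Fgfrl1 passed it without replicate 1 or 2 (-1.07 each), and stood at -1.44 (adjusted p = 5.16e-05) after leaving out epiphyseal animals 1 and 2. Of the 9 tested members of this list 1 was higher and 2 were lower (median -0.64).

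Of 17 tested growth hormone and insulin-like growth factor genes, none was higher and 2 were lower (median 0.17), against 7.30% lower over all tested genes. Ghr, the growth hormone receptor gene, fell by 1.18 ± 0.23 (adjusted p = 0.000265). Igfbp5, a binding protein gene, fell by 1.68 ± 0.44 (adjusted p = 0.00541), and without replicate 4 it was -1.26 (adjusted p = 0.0747). Igf2r, the clearance receptor gene, passed the test just below 2-fold, at -0.96 ± 0.14 (adjusted p = 7.23e-06), and it was called in 6 other settings at -1.07 to -1.03: without replicate 2 or 3, in the fits of only the 9 or the 8 paired arrays, with quantile normalization and without epiphyseal animals 1 and 2. Igf1 was not called, at 1.13 ± 0.59 (adjusted p = 0.159), and its epiphyseal arrays ran from 35.6 to 1265, the highest being that of animal 1. Without replicate 1 it was called, at 1.87 (adjusted p = 0.0318), and after leaving out epiphyseal animals 1 and 2, at 2.75 (adjusted p = 0.00163).

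On the epiphysis and joint surface list 6 of 17 tested genes were lower and 2 higher (median -0.44). The mean log2 signal of the list, hypertrophic minus epiphyseal, was -1.22, -1.49 and -0.9 in animals 1, 2 and 5 but -0.08 in animal 4. The summed signal was 48410 in the hypertrophic array of animal 4 and 14050 to 22060 in the other hypertrophic arrays, against 30850 to 36720 in the epiphyseal arrays. Besides Efemp1, Abi3bp, a matrix-binding protein gene, read 194.3, 126, 369.4, 588.5 and 146.1 against 2735, 5126, 3974 and 4030 (-3.87 ± 0.34, adjusted p = 4.85e-09). Omd, a small proteoglycan gene, fell by 3.70 ± 0.33 (adjusted p = 5.71e-09) and Vit was at -2.52 ± 0.32 (adjusted p = 1.59e-06). Lum, another proteoglycan gene and 1 of the 2 that rose, stood at 1.42 ± 0.36 (adjusted p = 0.00362). Its signal was 17178 in the hypertrophic array of animal 4, and without that array the value was 0.94 (adjusted p = 0.0118). The second, Clu, was called at 1.5 ± 0.42 (adjusted p = 0.00824) and was higher in 3 of 4 animals. Without replicate 4 it was 0.83 (adjusted p = 0.121), and without replicate 5 it was 1.33 (adjusted p = 0.0677). In the fit of only the 9 arrays it was 1.61 (adjusted p = 0.0694).

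Of 18 tested genes of hyaline cartilage matrix 1 was higher and 4 were lower (median 0.12), and Acan, the main proteoglycan gene, was not called (0.36 ± 0.19, adjusted p = 0.154). Ucma, a small secreted protein gene of immature chondrocytes, read 196.1, 167.1, 170.5, 149.7 and 102.6 against 1448, 1362, 2168 and 2732 (-3.45 ± 0.25, adjusted p = 1.43e-10). Fmod, a collagen-binding proteoglycan gene, read 3794, 3552, 4999, 2312 and 1982 against 16680, 17324, 18183 and 23172 (-2.59 ± 0.21, adjusted p = 1.31e-09). Neither overlapped between the zones. Comp, a pentameric matrix protein gene, rose by 1.28 ± 0.20 and Matn1, a matrilin gene, fell by 1.44 ± 0.23. Comp was under 2-fold without replicate 1 (0.96) and after leaving out epiphyseal animals 1 and 2 (0.92), and Matn1 without replicate 4 (-0.99).

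Proteases and their inhibitors went both ways, with 2 of 18 tested genes higher and 4 lower (median -0.39). Hypertrophic minus epiphyseal, the mean log2 signal of the list was -1.49, -1.57 and -0.21 in animals 1, 2 and 5 but 1.49 in animal 4. Timp3, a metalloproteinase inhibitor gene, rose by 1.72 ± 0.26 (adjusted p = 1.43e-05) and Adamts1 by 1.88 ± 0.32 (adjusted p = 5.74e-05). In the transition zone against epiphyseal cartilage Timp3 was lower, at -1.23 ± 0.26 (adjusted p = 0.000859). Mmp16, which encodes a membrane metalloproteinase, fell by 2.01 ± 0.29 (adjusted p = 9.03e-06). Timp2 fell by 1.99 ± 0.39 (adjusted p = 0.000309), with 7919 in the hypertrophic array of animal 4 and 590.4 to 1044 in the others. It was lower in 3 of 4 animals, and the zones overlapped.

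No gene of the hypoxia and glycolysis list was higher and 8 of 24 tested were lower (median -0.63). The mean log2 signal of the list, hypertrophic minus epiphyseal, was -0.19 and -0.55 in animals 1 and 2, and -1.49 and -1.25 in animals 4 and 5. In animal 1 the summed signal was 132100 in the hypertrophic and 126600 in the epiphyseal array. Car9, a hypoxia-induced gene for a carbonic anhydrase, read 119.7, 17.2, 123.3, 72.2 and 16.5 in the hypertrophic and 520.3, 463.4, 1172 and 739.3 in the epiphyseal arrays (-3.40 ± 0.38, adjusted p = 2.33e-07). Its value in the transition zone against epiphyseal cartilage was -0.25 ± 0.38. The enolase gene Eno2 fell by 1.80 ± 0.25 (adjusted p = 5.24e-06), Egln1, which encodes an oxygen sensor, was at -1.47 ± 0.23 (adjusted p = 2.18e-05) and the glycolytic gene Pfkp at -1.29 ± 0.27 (adjusted p = 0.000654).

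Cdkn1a, an inhibitor of cyclin-dependent kinases, read 5471, 6767, 6480, 5454 and 7287 against 791.6, 770.6, 1212 and 1002 (2.81 ± 0.21, adjusted p = 2.86e-10). Rb1, a brake on cell division, rose by 1.16 ± 0.29 (adjusted p = 0.00382) and was at 0.92 (adjusted p = 0.0845) after leaving out epiphyseal animals 1 and 2. These were the 2 calls among 13 tested genes of D cyclins and kinase inhibitors (median -0.36). Named after their values were seen, the D cyclin gene Ccnd2 (-0.95 ± 0.21, adjusted p = 0.000994) and the inhibitor gene Cdkn1b (-0.84 ± 0.17, adjusted p = 0.000404) passed the test below 2-fold. Both were lower in every hypertrophic than in every epiphyseal array. Of 28 tested cell cycle genes, 1 was higher and none lower (median -0.12). It was Cks2, a kinase subunit gene (1.39 ± 0.16, adjusted p = 4.83e-07). The animals differed in direction for the mean log2 signal of this list. Hypertrophic minus epiphyseal, it was -1.01 and -0.43 in animals 1 and 2 but 0.99 and 0.46 in animals 4 and 5. Mki67, a marker of dividing cells, passed the test below 2-fold, at 0.73 ± 0.26 (adjusted p = 0.0366), and stood at 1.09 (adjusted p = 0.0189) after leaving out epiphyseal animals 1 and 2.

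Of 12 tested genes of programmed cell death, 4 were higher and 1 lower (median 0.30). Diablo, a mitochondrial protein gene that promotes caspase activity, read 16913, 17661, 16561, 13587 and 22509 in the hypertrophic and 1146, 1196, 2296 and 1955 in the epiphyseal arrays (3.48 ± 0.18, adjusted p = 2.16e-13). Bcl2l11, which promotes cell death, rose by 1.90 ± 0.30 (adjusted p = 2.59e-05), and Bcl2l1, which opposes it, by 1.57 ± 0.31 (adjusted p = 0.00035). Members with opposed roles were thus among the calls. The lower gene was Bnip3, named after its value was seen, and no member was called lower without replicate 5, or with the hypertrophic array of animal 4 left out.

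Among 13 tested genes of cell volume, ion and water transport, 3 were higher and none lower (median 0.40). Besides Panx3 these were Atp1b1, a sodium pump subunit gene, at 10165, 11911, 9327, 6161 and 10785 against 1671, 1878, 3664 and 3947 (1.90 ± 0.23, adjusted p = 9.25e-07), and the amino acid transporter gene Slc38a2 (1.38 ± 0.15, adjusted p = 1.91e-07). The chloride channel gene Clic4 passed the test below 2-fold, at 0.94 ± 0.13 (adjusted p = 6.76e-06), and at 1.03 after leaving out epiphyseal animals 1 and 2. Genes of protein folding and collagen processing had 1 of 28 tested members higher and 1 lower (median 0.20). These were Ero1b, an oxidase gene of the endoplasmic reticulum (1.95 ± 0.39, adjusted p = 0.000476), and the collagen hydroxylase gene Plod1 (-1.21 ± 0.17, adjusted p = 5.87e-06), which without replicate 4 was at -1.0, just under 2-fold.

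In the retinoic acid list, 3 of 14 tested genes were higher and 3 lower (median 0.11). Aldh1a3, a synthesis gene, read 5141, 5490, 5024, 3450 and 5236 against 98.9, 165.3, 508.4 and 91.1 (4.79 ± 0.40, adjusted p = 1.68e-09). Rdh10, which acts a step earlier, rose by 1.22 ± 0.22 (adjusted p = 0.00015). Rbp4, a retinol carrier gene, fell by 1.63 ± 0.27 (adjusted p = 4.91e-05) and Cyp26b1, the degrading enzyme gene, was at -1.27 ± 0.22 (adjusted p = 9.46e-05).

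Of 14 tested chondrogenic transcription factor genes, 1 was higher and 3 were lower (median -0.54), with Foxo1 at 1.37 ± 0.24, Zfp521 at -1.95 ± 0.26 and Zbtb20 at -1.38 ± 0.19. Sox9 and Sox5 had no probe set named for them alone. Among 14 tested angiogenic and chemotactic factors, 1 was higher and 2 lower (median -0.32). Thbs2, an inhibitor of vessel growth, fell by 3.36 ± 0.29 (adjusted p = 3.8e-09) and the growth factor gene Vegfc was at -2.86 ± 0.45 (adjusted p = 2.96e-05). The higher one was Csf1, a macrophage growth factor gene whose probe sets disagreed in sign, and no member was called higher without replicate 1, 2, 3 or 5. In the Notch list 1 of 12 tested genes was lower, near the share of all tested genes (7.30%), and none was higher (median -0.16). It was the ligand gene Jag1, at -1.85 ± 0.50 (adjusted p = 0.00674), whose values were -1.35 (adjusted p = 0.105) without replicate 1 and -1.45 (adjusted p = 0.0862) without replicate 2. With neither epiphyseal array of animals 1 and 2 it was -0.88 (adjusted p = 0.34), and in the fit of only the 9 arrays -2.0 (adjusted p = 0.0714).

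**Figure D4:**
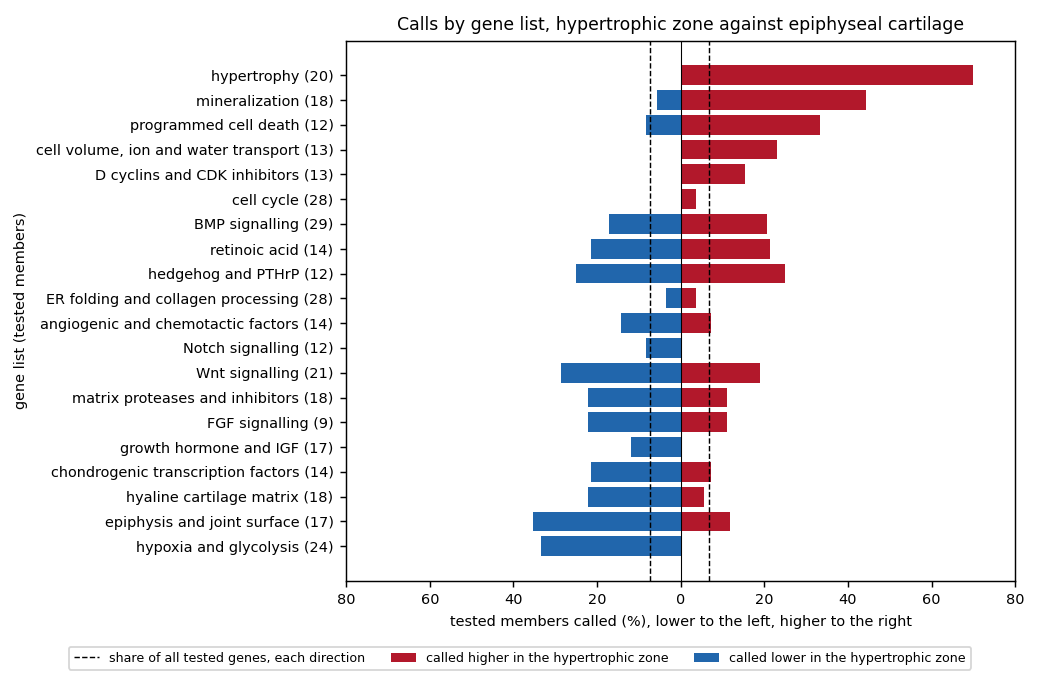
Share of the tested members of each of 20 gene lists called higher (red, to the right) or lower (blue, to the left) in the hypertrophic zone, with the number tested in brackets and the shares of all tested genes as dashed lines (6.72% higher, 7.30% lower). The hypertrophy list has 14 of 20 members higher, and the hypoxia and glycolysis list 8 of 24 lower.

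Of 7 tested erythroid genes 6 were higher and none lower (median 1.79). The counts of this and the other marker lists stand against 6.72% higher and 7.30% lower over all tested genes. Hbb, a haemoglobin gene, read 22234, 17048, 7486, 15644 and 19959 in the hypertrophic and 13798, 3814, 2841 and 5943 in the epiphyseal arrays (1.74 ± 0.31, adjusted p = 0.000134). Its values overlapped, through animal 3 in the hypertrophic zone and animal 1 in epiphyseal cartilage. Ahsp, a haemoglobin chaperone gene, rose by 2.90 ± 0.48 and Alas2, a haem synthesis gene, by 1.79 ± 0.38. Klf1, an erythroid transcription factor gene, rose by 2.28 ± 0.51 (adjusted p = 0.00126), and was at 1.20 (adjusted p = 0.13) after leaving out epiphyseal animals 1 and 2. The summed erythroid signal ran from 14820 to 39720 in the hypertrophic and from 8028 to 21250 in the epiphyseal arrays.

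Of 8 tested leukocyte and neutrophil genes 3 were higher and none lower (median 0.32). They were S100a9 (2.03 ± 0.43), S100a8 (1.78 ± 0.45) and Camp (2.59 ± 0.65), all of neutrophils, and the sums ran from 2516 to 10400 and from 2692 to 4087. Camp was at 2.20 (adjusted p = 0.0597) after leaving out epiphyseal animals 1 and 2, and S100a8 at 1.52 (adjusted p = 0.0672) with no replicate block. Of 5 tested osteoblast genes 4 were higher (median 1.91), among them Ibsp and Dmp1, which are also on the mineralization list. Col1a1, the main collagen gene of bone, read 6945, 3516, 8406, 39364 and 13606 against 9417, 1993, 1781 and 1567 (1.91 ± 0.43, adjusted p = 0.00142). In animal 1 it was lower in the hypertrophic than in the epiphyseal array. Its call was lost in the fits of only the 9 arrays (1.98, adjusted p = 0.0574) or the 8 paired arrays (1.98, adjusted p = 0.0569). Col1a2 rose by 1.45 ± 0.28.

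Of 9 tested osteoclast and macrophage genes 1 was higher and none lower (median 0.04). It was Itgb3, an integrin gene, at 2.13 ± 0.63 (adjusted p = 0.0126), with 6141 in the epiphyseal array of animal 1 against 260.8 in that of animal 5. Its call was lost without replicate 4 (1.24, adjusted p = 0.165), without replicate 5 (1.56, adjusted p = 0.132) and without the hypertrophic array of animal 4 (1.62, adjusted p = 0.0522). Ctsk, the collagen-degrading protease gene of osteoclasts, read 1121, 692.8, 2505, 28896 and 1123 against 7020, 3410, 663.9 and 389.9, and was not called (0.29 ± 0.77, adjusted p = 0.817). No member of the endothelial list (7 tested, median -0.50) or of the adipocyte list (3 tested, median 0.35) was called. Kdr, an endothelial receptor gene, read 289.9, 187.9, 218, 762.3 and 237.7 against 1735, 1177, 106.5 and 126.8 (-0.53 ± 0.69, adjusted p = 0.616).

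Skeletal muscle markers had 2 of 12 tested genes higher and none lower (median 1.23), against 6.72% higher over all tested genes. Their sums were 33770 to 95960 and 12930 to 78370. Myh1 rose by 1.31 ± 0.22 and Tnnc2 by 1.86 ± 0.66 (adjusted p = 0.0358), while Tnni2 was at -0.94 ± 0.18, under 2-fold, and at -1.09 without replicate 2. The Tnnc2 call was lost without replicate 2 (adjusted p = 0.185), 4 (adjusted p = 0.231) or 5 (adjusted p = 0.0768), and without the hypertrophic array of animal 4 (adjusted p = 0.109). With no replicate block its value was 1.92 (adjusted p = 0.165), and in the fit of only the 9 arrays 2.07 (adjusted p = 0.0521). Of 15 tested perichondrium and fibroblast genes 3 were higher and 3 lower (median 0.18): besides Col14a1, the microfibril gene Fbn1 was at -2.22 ± 0.21 and the receptor gene Pdgfra at -2.14 ± 0.33. The 3 higher ones were Col1a1, Col1a2 and Lum.

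The early response and stress list, whose genes can also react to tissue handling, had 6 of 13 tested members higher and none lower (median 0.98). Hspb1, a small heat shock protein gene, read 5004, 3776, 6089, 3473 and 4879 against 1300, 1070, 1783 and 1206 (1.76 ± 0.33, adjusted p = 0.000232). Klf4 rose by 1.14 ± 0.22, Dusp1 by 1.37 ± 0.30 and Fos by 1.65 ± 0.38 (adjusted p = 0.00148). With no replicate block Fos was at 1.35 (adjusted p = 0.0718). The part of blood, bone, muscle and stress RNA in the results above was not tested.

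**Figure D5:**
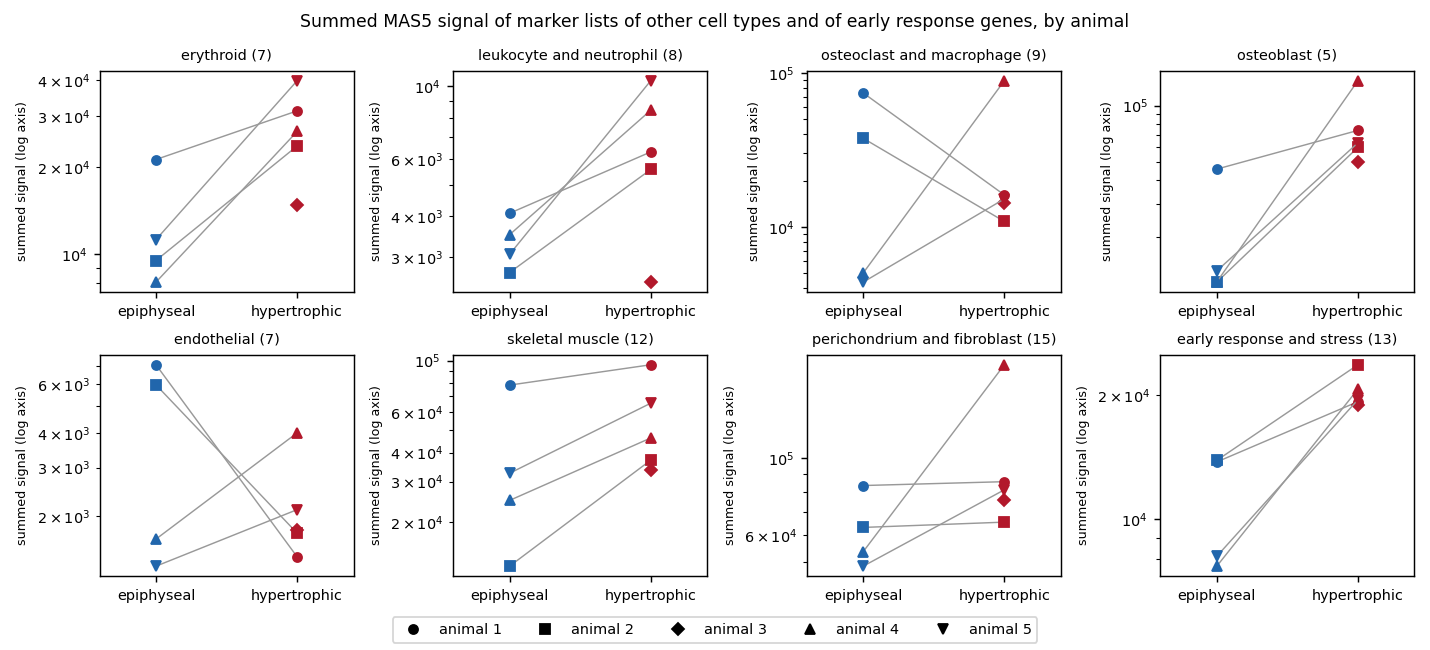
Summed MAS5 signal (log axes) of the tested members of 8 marker lists in epiphyseal cartilage (left, blue) and the hypertrophic zone (right, red), with lines joining the arrays of 1 animal and the number of genes in brackets. Erythroid, leukocyte, osteoblast, muscle and early response sums are higher in the hypertrophic array of each of the 4 animals with both zones, while osteoclast and endothelial sums are lower there in animals 1 and 2 and higher in animals 4 and 5. Sums follow the brightest genes: the mean log2 signal of the list was lower in the hypertrophic array of animal 1 for muscle (-0.83), osteoblast (-0.14) and leukocyte (-0.03) genes.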

How the data were processed

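The deposited intensity values are MAS5 signals, 1 per probe set on a linear scale, made by the authors per the submitters' processing notes, with no version named there. The mean without the lowest and highest 2% was 500.1 to 500.2 in all 24 arrays. From these, log2(signal + 16) was computed with no further normalization. Of 31099 probe sets, 57 controls were left out, and 19213 (61.8%) lay above the array median in at least 4 arrays and were tested; 13956 had 1 symbol, updated by gene identifier to the table of assembly GRCr8, 323 had several and 4934 none.

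All 24 arrays were fitted with zone and animal as terms in limma 3.58.1 (R 4.3.3; eBayes with trend), with 15 residual degrees of freedom. Array titles give a replicate number, which the labels tie to an animal and which is the source of the pairing. As a check, same-numbered arrays were correlated on their departures from zone means. Across zones the median r was 0.176 over 46 pairs, against -0.046 over 184 pairs of different numbers. For the 4 hypertrophic and epiphyseal pairs r was 0.009, 0.093, -0.142 and 0.292 (median 0.051). The 16 pairs of different numbers in these 2 zones ran from -0.213 to 0.234 (median -0.007). These ranges overlapped, so the check does not show the pairing for these 2 zones. Animal 3, with no epiphyseal array, enters through the other zones. No 2 arrays of a zone shared more than 30 values. The fit was tested on simulated data.

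The comparison, the 30 gene lists and the rules were chosen with earlier results of these data known. Genes named were the 12 largest rises and falls moving the same way in 4 animals, up to 4 members of each list by adjusted p, all tested hedgehog genes, and others said to be chosen after their values were seen, which also holds for Mmp13, Igf1, Lum, Clu and Bnip3. Of 538 listed genes 410 were tested. Probe sets of Csf1 and of Col2a1 disagreed in sign. Alternatives were pseudocounts of 1 and 64, other scalings, filters, blocks, sample sets and variance models, and leaving out animals or arrays.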

Additional observations from a re-analysis of the deposited data

Results flagged for a closer look

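Outlying arrays were looked for in 136 groups of 4 or 5 arrays, in which chance gives about 1 in 20, and 12 were found. In the hypertrophic array of animal 4, Ihh stood at a log2 signal of 12.60 against 13.36 to 13.64 in the other hypertrophic arrays, and Aldh1a3 at 11.76 against 12.30 to 12.43. The same array was high in the mean log2 signal of 5 lists: mineralization at 12.16 against 11.29 to 11.34, matrix proteases and inhibitors at 10.96 against 9.30 to 9.65, osteoclast and macrophage at 12.05 against 9.52 to 9.90, osteoblast at 13.23 against 11.31 to 11.84, and perichondrium and fibroblast at 12.07 against 10.42 to 10.73. These 5 lists share members, among them Ibsp, Dmp1, Col1a1, Col1a2 and Mmp9, so they are not separate observations. In the hypertrophic array of animal 5, Sfrp1 was at 7.88 against 7.32 to 7.46.

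Among epiphyseal arrays, that of animal 1 was low for LOC100910558, at a log2 signal of 8.62 against 9.38 to 9.50, and high for the leukocyte and neutrophil list, at 8.77 against 8.01 to 8.04. The epiphyseal array of animal 5 was low for the epiphysis and joint surface list, at 9.58 against 9.99 to 10.02, and had a median signal of 244.6 against 170.9 to 180.8.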

How the results depend on the processing

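The calls numbered 1244 higher and 1615 lower probe sets. Testing just the 10061 probe sets above the 75th percentile gave 795 and 988. The other settings stayed within 1.5 times of both counts. Leaving out 1 animal gave 1144 to 1292 higher and 1526 to 1662 lower. With no replicate block the counts were 1141 and 1606. The block changed the call of Fos, S100a8, Tnnc2 and Tnni2 among the 158 genes followed through the settings. The share of calls that were higher ran from 41.5% to 46.9%. Of the main calls, 78.1% recurred in the fit of only the 9 arrays and 78.4% in that of the 8 paired arrays. The share that recurred was 79.9% without epiphyseal animals 1 and 2 and 81.8% to 93.3% with 1 animal left out. Of these 158 genes 138 were called, 120 of them in every setting that tested their probe set. A stricter filter left some of these probe sets untested.

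Signs turned 28 times, all among genes that were not called. With quantile normalization Col2a1 was at -0.05, Mef2c at -0.02 and Kif7 at 0.01. With array weights Ctsk was at -0.47 and Mmp13 at -0.13, and with no replicate block Hhip was at -0.04. Without the epiphyseal arrays of animals 1 and 2, Col2a1 and Mef2c were both at -0.16, Vegfa at -0.38, Sufu at -0.17, Gli1 at 0.05 and Kdr at 0.84. Without the hypertrophic array of animal 4 Ctsk was at -0.78. Leaving out 1 animal at a time gave -0.11 to 0.48 for Col2a1, -0.07 to 0.21 for Mef2c, -0.34 to 1.44 for Mmp13, -0.05 to 0.51 for Vegfa, -0.14 to 0.26 for Hhip, -0.13 to 0.87 for Sufu, -0.42 to 0.11 for Kif7, -1.19 to 1.15 for Ctsk and -1.44 to 0.09 for Kdr. The cause was not tested. With 5 and 4 arrays and no detection calls used here, the number of arrays and dim signals limit the precision, and whether array handling differed with the label wording cannot be told apart from the zone.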

Other observations

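Genes outside the lists, chosen after their values were seen, add groups to the comparison. Higher in the hypertrophic zone were Enpp2, which encodes autotaxin (3.68 ± 0.20), Ptgis, which encodes prostacyclin synthase (3.47 ± 0.26), Npr3, a natriuretic peptide clearance receptor gene (3.06 ± 0.53), the mechanically gated channel gene Piezo1 (2.80 ± 0.15), the potassium channel gene Kcnk5 (3.45 ± 0.32), the chemokine receptor gene Ackr3 (2.24 ± 0.21) and the homeobox gene Dlx3 (2.70 ± 0.29). The netrin receptor gene Unc5b rose by 2.80 ± 0.23, whereas the netrin gene Ntn1 fell by 2.87 ± 0.54. Transcription factor genes that fell were Pou3f3 (-3.77 ± 0.24), Tbx4, a hindlimb gene (-3.27 ± 0.41), Nfib (-3.14 ± 0.30), Nfia (-2.41 ± 0.23), Hoxa9 (-2.99 ± 0.15) and Hoxc9 (-2.58 ± 0.34).

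Meg3 and Dlk1, imprinted genes of opposite parental expression, were at -3.68 ± 0.21 and -2.68 ± 0.28. Matrix genes that fell were Reln (-3.26 ± 0.25), Mfap2 (-3.20 ± 0.37), Loxl3, a lysyl oxidase gene (-3.07 ± 0.16), Lama2, a laminin chain gene (-2.88 ± 0.27), and Ltbp1, which binds latent transforming growth factor (-2.53 ± 0.32). The red cell genes Car1 (3.27 ± 0.69), Hemgn (2.63 ± 0.43) and Kel (2.34 ± 0.42) rose, as did 6 members of the erythroid list. Each of these genes moved the same way in 4 of 4 animals and was called.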
